A study of Mus musculus with 2 samples.

Results

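Collagens are the triple-helical proteins of the extracellular matrix, and each chain is encoded by its own gene. The family was taken as every gene whose symbol is Col, a number, a and a number with nothing after it, which gave 44 of the 31053 genes in the deposited tables. Transcripts were counted with position barcodes on an array in 2 frozen sections of calvarial bone, which forms the roof of the skull, taken from mice at day 7 of the repair of a bone defect. The group called Blank is 1 section from a defect that received no material, and the group called Col_nHA is 1 section from a defect implanted with a collagen/nHA material. The strain, sex, age and number of the animals are not given in the sources used here, and both groups had a defect of the calvarial bone. The counts are of transcripts, so collagen protein, including that of the implant, was not measured.

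Collagen chains are made as procollagens that are hydroxylated, folded into trimers, secreted, trimmed and cross-linked. Fibrillar collagens form the cross-striated fibrils that carry tension, and type I collagen is the main organic component of bone, while type III collagen is abundant in loose connective tissue and early repair tissue. Network collagens form sheets, with type IV in basement membranes. Type VI forms beaded filaments around cells, and the fibril-associated collagens with interrupted helices (FACIT) coat fibril surfaces. The remaining members were grouped as anchoring fibril, multiplexin, transmembrane and other collagens.

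A barcode on this array marks a spot that can hold several cells, and barcodes with at least 3667 unique molecular identifiers (UMIs) in Blank or 4690 in Col_nHA were used as spots over tissue. This left 2249 Blank spots (median 9733 UMIs) holding 30705849 UMIs and 2471 Col_nHA spots (median 13815 UMIs) holding 40202268. Every barcode name occurred in both files and 1345 of them were spots in both, since a barcode names a position on the array. UMIs were summed over the spots of a section and scaled to CPM, counts in 1000000, and every ratio is Col_nHA over Blank. With 1 library per group no test of the groups was possible, so each ratio compares 2 libraries, and the 95% intervals in brackets cover counting error only. Each UMI stands for 1 captured transcript, so levels are not divided by gene length. Fewer cells of a kind and less RNA per cell cannot be told apart in these sums. Of 8 osteoblast markers of the labelled bone tissue, 6 reached 10 CPM, with a median log2 ratio of -0.04. Bglap, which encodes osteocalcin, stood at 577.9 CPM in Blank against 233.4 CPM in Col_nHA, and Ibsp, which encodes bone sialoprotein, at 88.2 CPM against 173.6 CPM.

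Collagen transcripts made up 9.15% of all UMIs in Blank spots and 6.84% in Col_nHA spots. Their summed level was 91527 CPM in Blank against 68411 CPM in Col_nHA, a ratio of 0.747 (0.746 to 0.749). The difference lay mostly in the 3 most abundant genes of each section, Col1a1, Col1a2 and Col3a1, which held 84.7% of collagen UMIs in Blank and 80.1% in Col_nHA. Of the 44 members, 31 reached 10 CPM in Blank, in Col_nHA or in both. None of these 31 was at least 2-fold higher in Col_nHA, where 1.83% of the 9855 genes at this level were. At least 2-fold lower were 4 of the 31 (12.9%), namely Col6a6, Col9a3, Col14a1 and Col17a1, against 3.4% of all genes. Of these 4, Col6a6 passed the filter through Blank alone, at 18.99 CPM against 5.55 CPM in Col_nHA. The filter thus admitted it only through the section where it was high. The median log2 ratio was -0.30 over the 31 members and 0.02 over all 9855 genes, and 61.3% of the members lay below a ratio of 1 against 47.9% of all genes.

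**Figure D1:**
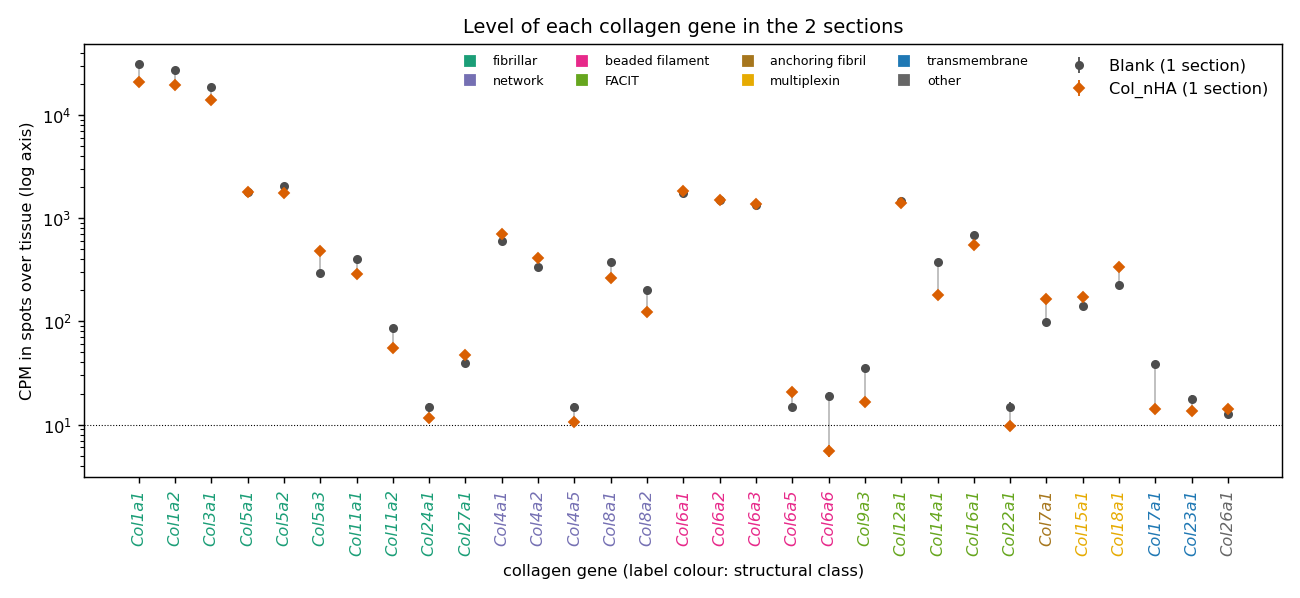
Level of the 31 collagen genes that reached 10 CPM, in CPM on a log axis. Circles are the Blank section and diamonds the Col_nHA section (1 section each), bars are 95% Poisson intervals that are mostly smaller than the symbols, the label colour gives the structural class and the dotted line marks 10 CPM. The symbols of Col5a1, Col6a1, Col6a2, Col6a3 and Col12a1 nearly coincide, and those of Col6a6, Col17a1, Col9a3 and Col14a1 lie farthest apart.

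The fibrillar class held 89.8% of collagen UMIs in Blank and 86.6% in Col_nHA, and its summed level had a ratio of 0.721. Col1a1, which encodes the α1 chain of type I collagen, stood at 31502 CPM in Blank against 21096 CPM in Col_nHA and ranked first among all genes in both sections. Its ratio was 0.670 (0.668 to 0.672). Col1a2, which encodes the partner α2 chain, stood at 27103 CPM in Blank against 19628 CPM in Col_nHA, a ratio of 0.724 (0.722 to 0.726). Col3a1, which encodes type III collagen, stood at 18926 CPM in Blank against 14102 CPM in Col_nHA, a ratio of 0.745 (0.742 to 0.748). All 3 were thus higher in Blank, and Col1a1 by the widest margin. Ratios of UMIs between genes of 1 section do not depend on how the libraries are scaled. The Col3a1 to Col1a1 ratio was 0.601 (0.599 to 0.603) in Blank and 0.668 (0.666 to 0.671) in Col_nHA, and the Col1a2 to Col1a1 ratio was 0.860 (0.858 to 0.863) and 0.930 (0.928 to 0.933).

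Type V and type XI collagens are minor fibrillar collagens that sit inside larger fibrils and limit their diameter. Col5a1 did not share the difference of the type I genes, at 1787 CPM in Blank against 1792 CPM in Col_nHA. Per Col1a1 transcript it was 0.0567 (0.0562 to 0.0572) in Blank and 0.0850 (0.0843 to 0.0856) in Col_nHA, which is 1.5 times as much. Col5a2 stood at 2040 CPM in Blank against 1767 CPM in Col_nHA, a ratio of 0.866. Col5a3 was the fibrillar member with the highest ratio among those at 10 CPM, with 293.2 CPM in Blank against 481.6 CPM in Col_nHA, a ratio of 1.64 (1.602 to 1.684). The type V chains therefore differed from each other in direction. The type XI genes were both lower in Col_nHA, Col11a1 with 398.6 and 287.2 CPM (ratio 0.721) and Col11a2 with 86.4 and 55.6 CPM (ratio 0.644). The Col11a1 to Col5a1 ratio was 0.223 (0.219 to 0.228) in Blank and 0.160 (0.157 to 0.163) in Col_nHA. Col24a1 stood at 14.7 CPM in Blank against 11.5 CPM in Col_nHA, and Col27a1 at 39.9 CPM and 47.5 CPM. Col2a1, the main collagen of cartilage, had 20 UMIs in the Blank spots and 65 in the Col_nHA spots, below the minimum for a call.

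Col1a2 and Col3a1 are shown with the 250 bases before their start because both rank among the 3 most abundant genes, yet their transcripts peaked in different regions of the sections, as given further on. The sequences are RefSeq's on GRCm38.p6, plus strand, at chr6:4505368-4505617 for Col1a2 and chr1:45311288-45311537 for Col3a1, and capitals mark matches on either strand to CCAAT (the CCAAT box), to TATAAA (the TATA box) or to GGGCGG (the GC box).
Col1a2: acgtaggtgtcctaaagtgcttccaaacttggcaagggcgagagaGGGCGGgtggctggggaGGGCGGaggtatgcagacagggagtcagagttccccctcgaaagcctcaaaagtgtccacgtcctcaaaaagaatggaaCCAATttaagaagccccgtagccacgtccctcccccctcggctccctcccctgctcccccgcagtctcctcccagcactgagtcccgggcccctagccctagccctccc
Col3a1: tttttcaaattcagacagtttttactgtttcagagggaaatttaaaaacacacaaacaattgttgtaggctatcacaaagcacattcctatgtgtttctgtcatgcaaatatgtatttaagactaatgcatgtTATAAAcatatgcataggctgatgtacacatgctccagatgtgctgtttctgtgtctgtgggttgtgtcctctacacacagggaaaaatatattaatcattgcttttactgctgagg
The Col1a2 stretch held 1 CCAAT match and 2 GGGCGG matches with a G and C content of 62%, and the Col3a1 stretch held 1 TATAAA match and no other, with 35.2%. Among RefSeq's windows of 300 bases (250 before to 50 after a start), 38 windows belonged to 35 of the 44 members. GGGCGG occurred in 60.5% of these and in 35.7% of all 32851 windows, CCAAT in 34.2% and 37.4%, and TATAAA in 13.2% and 13.6%. A match describes letters and not a bound site.

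The network class had almost the same summed level in both sections (ratio 0.989), but its members went both ways. Col4a1 and Col4a2, which encode the chains of the common basement membrane trimer, were both more abundant in Col_nHA. Col4a1 stood at 598.7 CPM in Blank against 704.6 CPM in Col_nHA, a ratio of 1.18 (1.16 to 1.20). Col4a2 stood at 334.5 CPM in Blank against 411.4 CPM in Col_nHA, a ratio of 1.23 (1.20 to 1.26). The Col4a2 to Col4a1 ratio was 0.559 (0.545 to 0.572) in Blank and 0.584 (0.573 to 0.595) in Col_nHA, so the pair kept close to the same proportion. Type VIII collagen, a short-chain network collagen of vessel walls and of Descemet's membrane, lay the other way. Col8a1 stood at 380 CPM in Blank against 264.4 CPM in Col_nHA (ratio 0.696, 0.678 to 0.714) and Col8a2 at 201.9 and 124.5 CPM (ratio 0.617, 0.594 to 0.640). Per Col1a1 transcript, Col8a1 was 0.0121 in Blank and 0.0125 in Col_nHA. Col4a5 stood at 14.8 CPM in Blank against 10.7 CPM in Col_nHA. The endothelial marker list, with 6 of 6 genes at 10 CPM, summed to 311.1 CPM in Blank against 386.8 CPM in Col_nHA (median log2 ratio 0.45), and the part of these cells in the type IV values was not tested.

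Col4a1 and Col4a2 lie head to head on chromosome 8 (GRCm38.p6, Col4a1 at chr8:11198423-11312889 on the minus strand and Col4a2 at chr8:11312805-11449287 on the plus strand), with their 5′ ends overlapping by 85 bases. Their promoter windows share 78 bases, and the 30 bases at chr8:11312800-11312829 around the single GGGCGG match of that shared stretch are shown on the strand of each gene, with the match in capitals, because this pair of genes moved together across the sections and regions.
Col4a2: tcggcagtgcgcGGGCGGcgtctccaaggg
Col4a1: cccttggagacgCCGCCCgcgcactgccga
Whether the counting used strand is not stated for these files, so reads in the overlap could be split between both genes, although the overlap lies at their 5′ ends.

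The 3 main chains of type VI collagen, which anchors cells to the surrounding matrix, stood at nearly the same level in both sections. Col6a1 stood at 1757 CPM in Blank against 1837 CPM in Col_nHA, Col6a2 at 1511 and 1495 CPM, and Col6a3 at 1347 and 1367 CPM, with ratios of 1.05, 0.990 and 1.02. The beaded-filament class made up 5.08% of collagen UMIs in Blank and 6.91% in Col_nHA. The 3 chains also kept close proportions to each other, with a Col6a2 to Col6a1 ratio of 0.860 (0.849 to 0.871) and 0.814 (0.805 to 0.823) and a Col6a3 to Col6a1 ratio of 0.767 (0.757 to 0.776) and 0.744 (0.736 to 0.753). The α3-like chains were far rarer and did not follow them. Col6a5 stood at 14.9 CPM in Blank against 20.7 CPM in Col_nHA, a ratio of 1.39 (1.24 to 1.56). Col6a6 stood at 18.99 CPM in Blank against 5.55 CPM in Col_nHA, a ratio of 0.292 (0.249 to 0.342). This was the lowest of all 31 members, for a gene that passed the filter through Blank alone. These opposite genes are neighbours on chromosome 9, separated by 27823 bases. Col6a4 had 34 UMIs in Blank and 37 in Col_nHA.

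Every FACIT gene at 10 CPM had a ratio below 1, 5 of 5, where 47.9% of all genes at this level had. Col12a1 stood at 1.06 as a mean of per-spot CPM, however, and Col9a3 at 1.13 without spots rich in other tissues. Col22a1 passed the filter through Blank alone, which fixed its side of 1 in this count. Of the 5, 2 were at least 2-fold lower in Col_nHA, where 3.4% of all genes were. Col12a1, whose product links fibrils in tendon, ligament and periosteum, stood at 1474 CPM in Blank against 1396 CPM in Col_nHA, a ratio of 0.947. Col14a1, the related fibril-surface collagen of mature connective tissue, stood at 380.4 CPM in Blank against 182.3 CPM in Col_nHA, a ratio of 0.479 (0.465 to 0.493). The Col12a1 to Col14a1 ratio was 3.88 (3.797 to 3.955) in Blank and 7.66 (7.48 to 7.85) in Col_nHA. Col16a1 stood at 682.6 CPM in Blank against 555.6 CPM in Col_nHA, and Col22a1, known from tissue junctions such as that of muscle and tendon, at 14.95 and 9.60 CPM. Col9a3, a chain of the type IX collagen of cartilage, stood at 35.3 CPM in Blank against 16.5 CPM in Col_nHA, a ratio of 0.468 (0.424 to 0.516), while Col9a1 and Col9a2 lay below 5 CPM in both sections, at 4.63 and 4.45 CPM and at 4.53 and 4.73 CPM. The fibroblast marker list had 6 of 6 genes at 10 CPM, 2 of them at least 2-fold lower in Col_nHA, and summed to 4399 CPM in Blank against 2744 CPM in Col_nHA. Its part in the Col14a1 value was not tested.

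Basement membrane and cell-surface collagens outside these classes differed in direction too. Col7a1, the anchoring fibril collagen that ties epidermis to dermis, stood at 99.8 CPM in Blank against 163.7 CPM in Col_nHA, a ratio of 1.64 (1.57 to 1.71). Col17a1, the transmembrane collagen of hemidesmosomes in basal keratinocytes, stood at 39.0 CPM in Blank against 14.3 CPM in Col_nHA, a ratio of 0.366 (0.331 to 0.405). Both belong to the junction beneath the epidermis, and the skin marker list summed to 1829 CPM in Blank against 903.7 CPM in Col_nHA, with Krt10 at 407.3 and 20.8 CPM and Krt14 at 478.6 and 541.4 CPM. The multiplexins, whose C-terminal fragments include endostatin from Col18a1, were both higher in Col_nHA. Col18a1 stood at 228.1 CPM in Blank against 334.8 CPM in Col_nHA, a ratio of 1.47 (1.43 to 1.51), and Col15a1 at 140.1 and 171.9 CPM, a ratio of 1.23 (1.18 to 1.28). Col23a1 stood at 17.7 CPM in Blank against 13.5 CPM in Col_nHA, and Col26a1 at 12.8 and 14.1 CPM (ratio 1.10, 0.967 to 1.26).

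The 13 members below 10 CPM in both sections added little. Col13a1 was just below the minimum, at 9.54 CPM in Blank against 9.63 CPM in Col_nHA, and Col26a1 and Col24a1, given above, were just past it. Col4a4 had 92 UMIs in Blank and 26 in Col_nHA, a ratio of 0.216 (0.134 to 0.337), Col20a1 had 85 and 79, Col4a6 59 and 70, and Col10a1, the collagen of hypertrophic cartilage, 51 and 77. Col4a3 had 16 and 10 UMIs, Col28a1 16 and 21, and Col25a1 9 and 8. Col19a1 had 0 UMIs in Blank and 1 in Col_nHA. Col2a1, Col10a1 and Col9a1 were low, while 3 of 5 cartilage markers reached 10 CPM. Acan stood at 46.7 CPM in Blank against 35.0 CPM in Col_nHA, and Sox9 at 31.85 and 24.92 CPM. Comp stood at 11.2 and 6.54 CPM, Cnmd at 1.075 and 0.0995 CPM and Matn1 at 0.0977 and 0.0746 CPM.

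Spots varied widely within each section. The collagen share of a spot's UMIs had a median of 8.71% in Blank, with 5% of spots below 3.61% and 5% above 14.6%, and a median of 6.77% in Col_nHA, with the same limits at 1.05% and 12.2%. The Blank distribution lay to the right, and the Col_nHA section had more spots with very little collagen. The Col3a1 to Col1a1 ratio was taken in spots with at least 50 UMIs of both genes together. This kept 2248 Blank and 2396 Col_nHA spots, so more of the collagen-poor Col_nHA spots were left out. The ratio of a spot had a median of 0.601 in Blank and 0.652 in Col_nHA. Col3a1 outnumbered Col1a1 in 9.52% of these Blank spots and 12.9% of these Col_nHA spots.

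**Figure D2:**
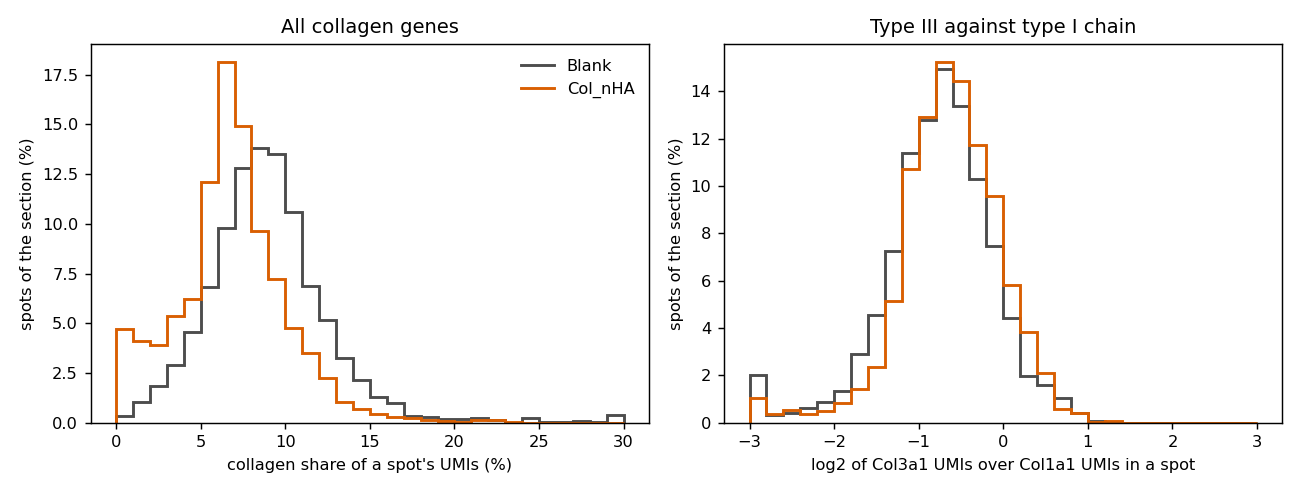
Distribution over spots of the collagen share of a spot's UMIs (left, in percent) and of the log2 ratio of Col3a1 to Col1a1 UMIs (right), with the share of a section's spots on the vertical axis, and spots beyond either end counted in the last bin. The left curve of Blank (median 8.71%) lies to the right of that of Col_nHA (median 6.77%), which has a second rise near 0, while the right curves overlap with medians of 0.601 and 0.652 before the log. The right curves are shares of the 2248 Blank and 2396 Col_nHA spots with at least 50 UMIs of both genes together.

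To compare how widely members were detected, every spot was thinned to 2000 UMIs. Col1a1, Col1a2 and Col3a1 were found in 99.4% to 100% of spots in both sections. Col14a1 was found in 50.3% of Blank spots and 26.4% of Col_nHA spots, and without thinning in 89.2% and 68.4%. Col5a3 was found in 36.8% and 52.7% of spots (78.6% and 91.3% without thinning), Col18a1 in 32.2% and 42.5% (77.8% and 84.9%), and Col17a1 in 8.23% and 2.79% (21.4% and 8.98%). These orders matched those of the CPM, which rest on the same counts. Members with CPM ratios near 1 did not all match. Col12a1 was found in 77.2% of Blank spots and 80.1% of Col_nHA spots, and Col6a3 in 85.8% and 82.8%. Barcodes below the UMI threshold also held collagen transcripts, with Col1a1 at 33628 CPM in Blank against 22391 CPM in Col_nHA. At 500 UMIs, Col14a1 was found in 18.2% of Blank spots and 16.7% of Blank barcodes below the threshold (9.47% and 9.72% in Col_nHA), so a UMI in a spot was not read as expression by a cell there.

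Spots of both sections were then clustered without the collagen genes, which gave 19 regions, each named by a number and its leading genes. Most regions came almost wholly from 1 section, and regions 3 (185 Blank and 202 Col_nHA spots, led by Penk, Shisa3 and Cldn11) and 13 (94 and 99 spots, led by Bglap, Bglap2 and Ibsp) were the ones with at least 50 spots of each. A region held by 1 section may reflect that library and not a kind of tissue. The collagen share of UMIs ran from 1.59% in region 8 (Myh4, Pvalb) to 14.98% in region 13 over both sections. Region 8 held 256 Col_nHA spots and 6 Blank spots, and muscle markers made up 10.7% of its UMIs. It had the lowest level of 20 of the 31 members among the 12 Col_nHA regions with at least 30 spots. In Blank, the lowest level of 13 of the 31 members among 10 regions was in region 14 (Ttr, Enpp2), where choroid plexus markers made up 16.1% of UMIs.

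Of the 31 members, 16 had their highest level in the same region in both sections, and the other 15 peaked in different regions. Only regions 3, 7 (Retnla, C3) and 13 had at least 30 spots in both sections. A member that peaked elsewhere could not share its top region, so these counts partly follow from the clustering. The same count over all genes was not made. In region 13, where osteoblast markers made up 1.20% of UMIs, the highest levels of 7 of the 31 members were found in Blank and of 8 in Col_nHA, and Col1a1, Col1a2, Col5a2, Col11a1, Col11a2, Col24a1 and Col22a1 were in both counts. Col1a1 reached 79171 CPM there in Blank and 57062 CPM in Col_nHA, against medians over regions of 30204 and 19722 CPM. Col11a2 reached 1087 and 775.1 CPM, and this region of 94 and 99 spots held 48.8% of its Blank UMIs and 49.6% of its Col_nHA UMIs. For Col22a1 the region held 56.4% and 45.3% of its UMIs, and for Col13a1, a transmembrane collagen, 42.7% and 47.3%. Fibrillar genes made up 94.5% of the collagen UMIs of region 13 in Blank and 92.9% in Col_nHA, the highest share among the regions with at least 30 spots of each section.

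Region 3 held the highest levels of 10 of the 31 members in each section. Those in both counts were Col4a1, Col4a2, Col4a5, Col8a1, Col8a2, Col6a5, Col18a1, Col23a1 and Col26a1, which are mostly network and basement membrane collagens. Col4a1 reached 1150 CPM there in Blank and 1529 CPM in Col_nHA, against medians over regions of 543.5 and 557.2 CPM. Col6a5 reached 79.2 and 153.6 CPM, with 59.6% of its Blank UMIs and 65.9% of its Col_nHA UMIs in the region, and Col26a1 had 44.0% and 63.3% there. Network genes made up 3.46% of the collagen UMIs of region 3 in Blank and 4.70% in Col_nHA, again the highest share among those regions. The arachnoid and meninges markers made up 0.0650% of its UMIs, against 0.0972% in region 14. Those of endothelium made up 0.0411%, less than in regions 10 (0.0655%), 4 (0.0484%), 2 (0.045%) and 19 (0.04485%). The part of either list in the region 3 levels was not tested.

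Type VI genes and Col12a1 peaked together in other regions. In Blank, region 1 (Tnmd, Sfrp2, 481 spots) had the highest levels of Col5a1, Col27a1, Col6a1, Col6a2, Col6a3 and Col12a1, and in Col_nHA region 2 (Mmp9, Acp5, 421 spots) had the highest levels of the same 6 genes. Col12a1 reached 2642 CPM in region 1 of Blank and 2392 CPM in region 2 of Col_nHA, with 54.4% and 43.4% of its UMIs there. Tendon markers made up 0.0507% of the UMIs of region 1, and osteoclast markers 0.488% of those of region 2. Col5a3 peaked at 482.4 CPM in region 9 (Acod1, Clec4e) of Blank and at 1018 CPM in region 19 (Hmox1, Ptprn) of Col_nHA.

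**Figure D3:**
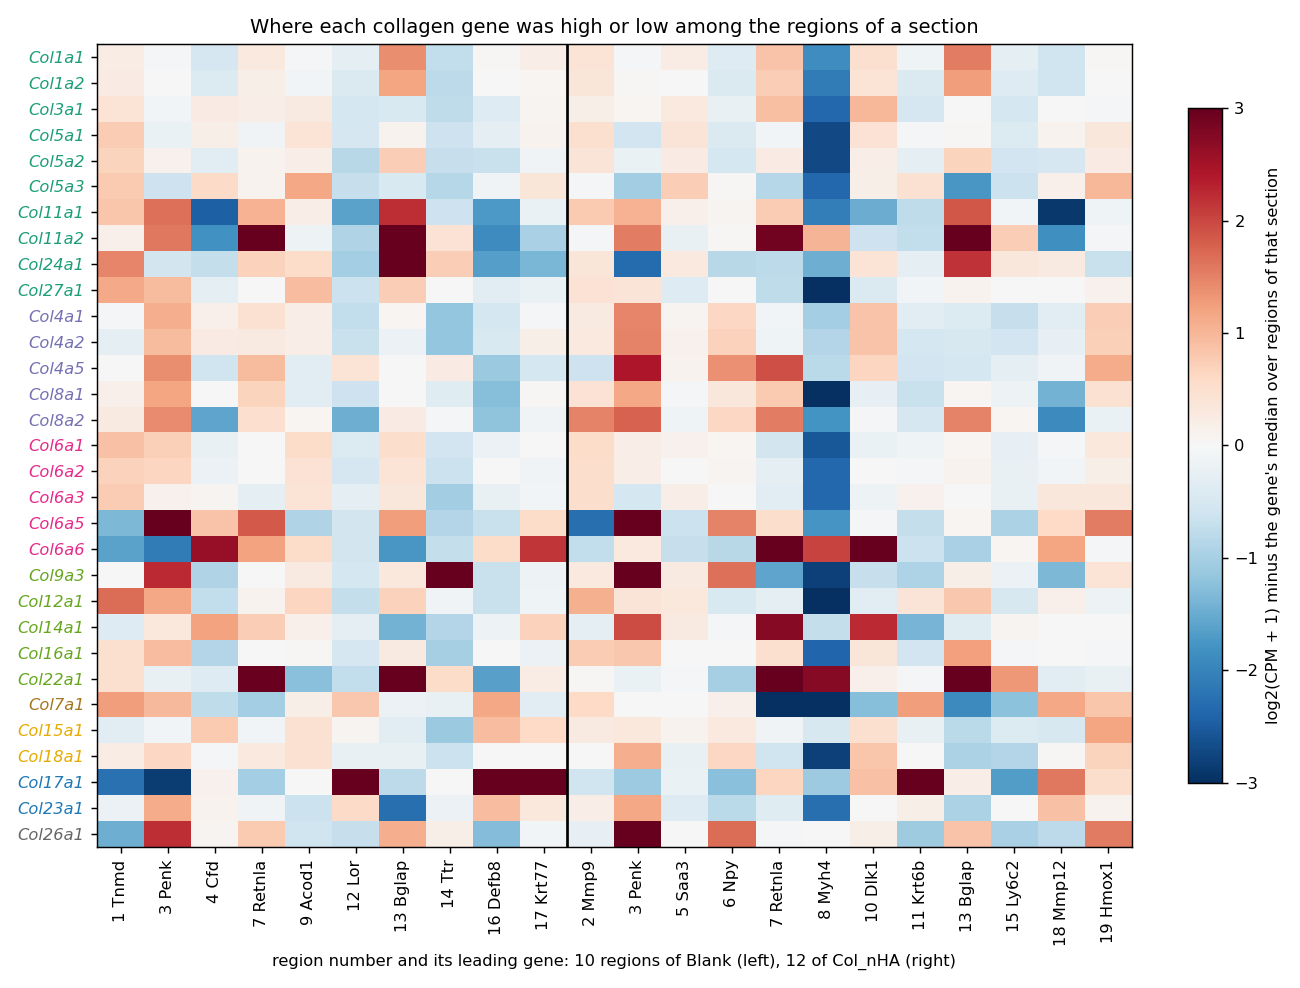
Level of the 31 collagen genes (rows) in each region with at least 30 spots (columns, 10 of Blank left of the line and 12 of Col_nHA right of it), as log2(CPM + 1) minus the gene's median over the regions of that section, with colours capped at 3 either way. Red cells of Col1a1, Col11a2 and Col22a1 stand in region 13 and those of Col4a1, Col4a2, Col6a5 and Col26a1 in region 3 of both sections, and region 8 of Col_nHA is blue for 20 genes at their lowest.

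The 4 members that were at least 2-fold lower in Col_nHA had much of their Blank UMIs in regions with few or no Col_nHA spots. This trait was not particular to them, since most Blank regions held few Col_nHA spots. Col12a1 and Col5a1, which were not 2-fold lower, had 54.4% and 43.0% of their Blank UMIs in region 1, with 5 Col_nHA spots. Of all 30705849 Blank UMIs, region 14 held 2090694, region 4 4729318 and region 12 1546534. Col9a3 had 60.7% of its Blank UMIs in region 14, at 314.7 CPM, and no Col_nHA spot fell in that region. Col6a6 had 57.6% and Col14a1 30.7% of their Blank UMIs in region 4 (Cfd, Myl4, Mybph), which held 335 Blank and 16 Col_nHA spots. Muscle markers made up 2.34% and fat markers 0.199% of the UMIs of region 4. Col17a1 had 53.6% of its Blank UMIs in region 12 (Lor, Krt10) and 80.1% of its Col_nHA UMIs in region 11 (Krt6b, Krt6a), at 415.1 and 170.7 CPM, and skin markers made up 2.46% and 1.12% of the UMIs of these regions. Col7a1 was highest in region 1 of Blank, at 155.3 CPM with 47.3% of its UMIs, and in region 11 of Col_nHA, at 351.3 CPM with 14.4% of its UMIs, close to its 328.7 CPM in region 18 (Mmp12, Itgax). After 517 Blank and 304 Col_nHA spots with over 2% of UMIs from other-tissue markers were left out, Col9a3 stood at a ratio of 1.13, Col14a1 at 0.511, Col17a1 at 0.507 and Col6a6 at 0.303. Only Col6a6 of these 4 then stayed at least 2-fold lower, and Col22a1 joined it at 0.478. Of all genes at 10 CPM, 264 of 9725 were at least 2-fold lower without those spots.

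The balance of type III to type I transcripts differed more between regions than between sections. The Col3a1 to Col1a1 ratio was lowest in region 13 of both sections, at 0.159 (0.157 to 0.162) in Blank and 0.247 (0.244 to 0.251) in Col_nHA. It was highest in region 4 of Blank, at 0.971 (0.962 to 0.980), and in regions 18 (Mmp12, Itgax) and 10 (Dlk1, Sfrp1) of Col_nHA, at 1.06 (1.04 to 1.08) and 1.01. Col3a1 itself was highest in region 1 of Blank, at 23095 CPM, and in region 10 of Col_nHA, at 27836 CPM. The Col5a1 to Col1a1 ratio was also lowest in region 13, at 0.0201 in Blank and 0.0319 in Col_nHA, and reached 0.148 in region 18. Among the FACIT genes, the Col12a1 to Col14a1 ratio ran from 0.648 in region 4 to 11.01 in region 13 of Blank, and from 1.16 in region 7 (Retnla, C3) to 32.9 in region 11 of Col_nHA.

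**Figure D4:**
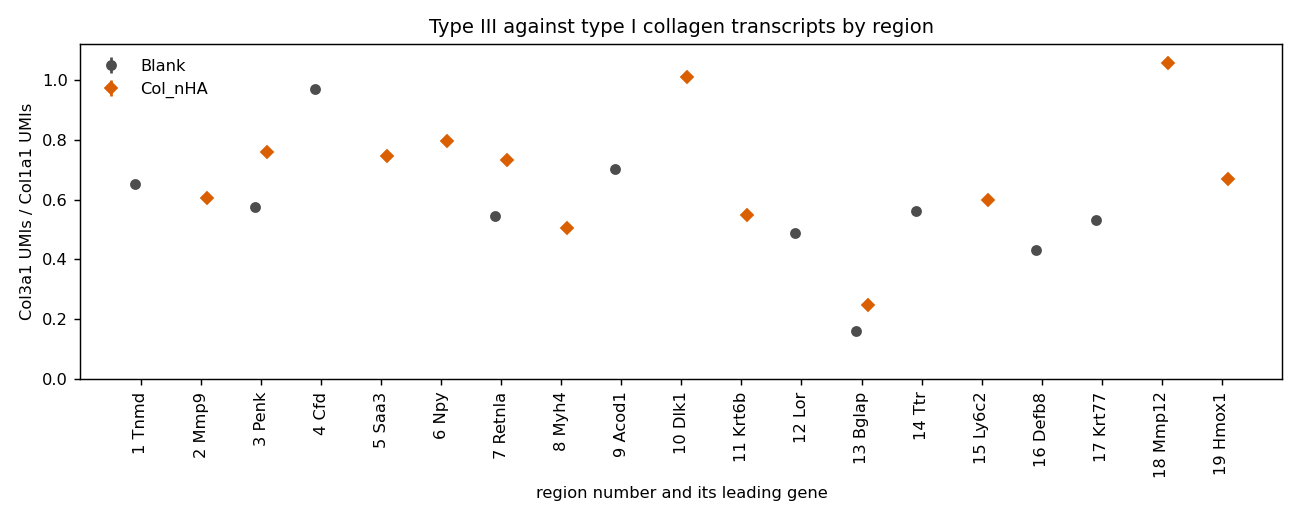
Ratio of Col3a1 to Col1a1 UMIs in each region with at least 30 spots of the section, with region number and leading gene on the horizontal axis. Circles are Blank and diamonds Col_nHA, and the 95% counting intervals are smaller than the symbols. Region 13 is lowest in both sections (0.159 and 0.247), and regions 4, 10 and 18 lie near 1.

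In the 2 regions sampled from both sections the collagens could be compared within a region. In region 3, collagens made up 8.85% of UMIs in Blank and 6.98% in Col_nHA, a ratio of 0.788 (0.784 to 0.793). Of 28 members at 10 CPM there, 2 were at least 2-fold higher in Col_nHA, where 1.87% of 9858 genes were, and 0 were at least 2-fold lower, where 1.02% were. The 2 were Col18a1, at 310.3 and 639.4 CPM (ratio 2.06, 1.92 to 2.22), and Col26a1, at 50.2 and 100.6 CPM (ratio 2.01, 1.67 to 2.42). Col4a1 and Col4a2 had ratios of 1.33 and 1.44 there, Col15a1 of 1.64 and Col6a5 of 1.94, while Col1a1 stood at 0.668, Col11a1 at 0.585 and Col8a2 at 0.519. The median log2 ratio of the members was -0.09 and that of all genes 0.10. Of the 27 members at 10 CPM both there and over the whole sections, 21 had the same direction in region 3 as in the whole sections. The 6 with the opposite direction were Col5a1, Col4a5, Col6a1, Col6a3, Col9a3 and Col14a1. Direction here is only the side of 1, and Col5a1, Col6a1 and Col6a3 stood at 1.003, 1.045 and 1.015 over the whole sections. The share of all genes that kept their side was not computed. Col9a3 stood at 1.55 in region 3 and 0.468 over all spots, and Col14a1 at 1.16 and 0.479.

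In region 13, collagens made up 16.9% of UMIs in Blank and 13.4% in Col_nHA, a ratio of 0.796 (0.791 to 0.801). Of 31 members at 10 CPM there, 0 were at least 2-fold higher, where 4.19% of 9376 genes were, and 3 were at least 2-fold lower, where 3.32% were. Those 3 rested on few UMIs, and each reached 10 CPM in region 13 of Blank alone. The filter thus admitted them only through the section where they were high, so their count was not read as a difference. Col4a5 had 15 UMIs in Blank and 6 in Col_nHA, Col26a1 had 27 and 12, and Col10a1 had 16 and 0, which is at least 6.40-fold lower against a floor of 3 counts for the region. The median log2 ratio was -0.34 over the members and 0.09 over all genes. Col1a1 had a ratio of 0.721 and Col1a2 of 0.777, but Col3a1 stood at 1.12 (1.09 to 1.14), Col12a1 at 1.51 (1.42 to 1.61) and Col16a1 at 1.43 (1.31 to 1.55), each opposite to its direction in the whole sections. Of 28 members at 10 CPM both there and over the whole sections, 13 had the opposite direction in region 13. Among them were Col4a1 and Col4a2, at 0.737 and 0.789, and also Col6a1 and Col6a3, which stood near 1 over the whole sections. The share of all genes with the opposite direction was not computed here either. Col15a1 and Col18a1 stood at 0.881 (0.682 to 1.14) and 0.902 (0.742 to 1.10), below their region 3 ratios, and the difference between the regions was not tested.

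**Figure D5:**
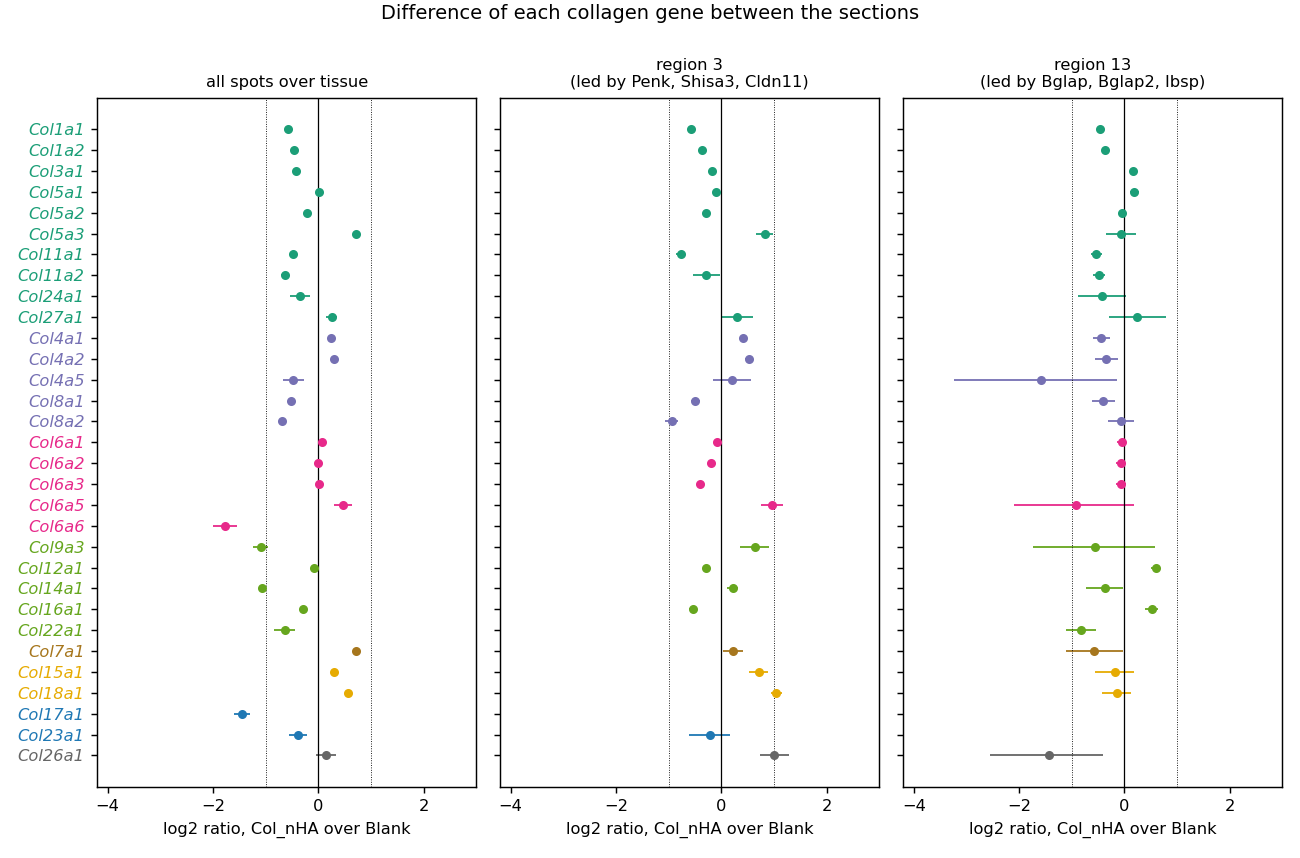
Log2 ratio of Col_nHA over Blank for the 31 collagen genes over all spots (left), in region 3 (middle) and in region 13 (right), where a gene without 10 CPM in the region is not drawn. Points are ratios, bars 95% counting intervals, dotted lines 2-fold either way and colours the structural class. The type I genes lie left of 0 in all panels, Col4a1, Col4a2 and Col18a1 lie right of 0 in the first and second panels and left of 0 in the third, and Col12a1 lies right of 0 in region 13 only.

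Likeness between members was described by Pearson's r of log2(CPM + 1) across the regions of a section, 10 in Blank and 12 in Col_nHA, which share a library and are not replicates. Over the 465 pairs the median r was 0.264 in Blank and 0.374 in Col_nHA. The likest pair of the fibrillar class was Col1a1 and Col1a2 (0.989 and 0.990), of the beaded-filament class Col6a1 and Col6a2 (0.980 and 0.990), of the network class Col4a1 and Col4a2 (0.968 and 0.991) and of the FACIT class Col12a1 and Col16a1 (0.763 and 0.868). In the first 3 classes these are chains that assemble into the same trimers. Some pairs across classes, chosen after their values were seen, were also alike, such as Col27a1 and Col6a1 (0.925 and 0.974), Col27a1 and Col12a1 (0.957 and 0.918) and Col11a1 and Col8a2 (0.900 and 0.922). Col1a1 and Col3a1 were much less alike in Blank, at 0.069, but stood at 0.790 in Col_nHA, above the median over pairs there. These values rest on mostly different regions. The Col_nHA set held region 8, where both genes were at their lowest, at 5395 and 2731 CPM. The r without region 8 was not computed. Neighbours in the genome were taken as pairs at most 50 kb apart, and 3 such pairs had values. Col4a1 and Col4a2 and also Col3a1 and Col5a2, 24624 bases apart on chromosome 1 (0.527 and 0.879), lay above the medians over pairs. Col6a6 and Col6a5 (-0.082 and 0.015) lay below them. Col6a1 and Col6a2, both on chromosome 10, are farther apart than this limit and were not counted. Among 3421 other genes, those most like Col1a1 were Sparc (0.924 and 0.986), Serpinf1 and Fkbp7. Those most like Col3a1 were Aebp1 (0.881 and 0.960), C1qtnf6 and Tgfbr2, and those most like Col4a1 were Synpo (0.935 and 0.892), Pdgfrb and Wwtr1.

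The 4 lists of genes that handle collagen had median log2 ratios from -0.22 to 0.41, beside -0.38 for the 10 fibrillar genes at 10 CPM, and the difference was not tested. Of 18 genes for chain folding and modification, 16 reached 10 CPM, none differed by 2-fold and the median log2 ratio was 0.10. Among all 9855 genes at this level, the 2-fold mark was passed upward by 1.83% and downward by 3.4%. Lists this short would hold few such genes at those shares, so a count of none was not read as stability. Serpinh1, which encodes the collagen chaperone HSP47, stood at 2236 CPM in Blank against 2602 CPM in Col_nHA. The lysyl hydroxylase genes Plod1, Plod2 and Plod3 had ratios of 1.03, 1.39 and 1.497. Of 12 genes for propeptide removal and cross-linking, 9 reached 10 CPM, with a median of 0.28. Loxl3, a lysyl oxidase gene, was at least 2-fold higher at 74.4 and 149.6 CPM (ratio 2.01, 1.92 to 2.11), and Pcolce2, an enhancer of procollagen trimming, at least 2-fold lower at 20.2 and 9.30 CPM (ratio 0.460, 0.404 to 0.524). Lox and Loxl2 had ratios of 1.22 and 1.56, but Loxl1 one of 0.893. The propeptidase gene Adamts2 had a ratio of 0.676, while Adamts14 of the same list had one of 1.40. Of 9 collagen receptor genes, 8 reached 10 CPM, none differed by 2-fold and the median was -0.22, with the fibroblast integrin gene Itga11 at 0.684 and the leukocyte receptor gene Lair1 at 1.78. Of 6 genes for collagen-cleaving proteases, 5 reached 10 CPM with a median of 0.41. Mmp9, which encodes a gelatinase of osteoclasts and leukocytes, was the one at least 2-fold higher, at 246 CPM in Blank against 638.7 CPM in Col_nHA (ratio 2.60), Ctsk had a ratio of 1.45 and Mmp2 one of 0.734. Osteoclast markers summed to 1388 CPM in Blank against 2427 CPM in Col_nHA, and their part in the Mmp9 and Ctsk values was not tested.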

How the data were processed

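The authors deposited raw UMI counts per gene and barcode, made with Space Ranger on mm10, per the submitters' processing notes. The file headers name Cell Ranger 4. The extraction text of the labels describes a droplet library, while the array barcodes go with the spatial label. No image or coordinates were used. Spot counts were added up within a section and expressed as CPM (counts in 1000000), with exact conditional binomial intervals for ratios, Poisson for CPM and Clopper-Pearson for shares (95%), and a floor of 3 counts. Members that reached 10 CPM in either section were named by a fixed rule, and the rarer members, handling genes and further pairs named were chosen after their values were seen. No doublet caller was run on spots. Regions came from log-scaled counts (10000 per spot), 2000 variable genes without the members, 30 principal components, 15 neighbours and Leiden clustering at resolution 0.6. The 19 lists held 122 entries, all 122 found. The calculations were tested on simulated data. Members and lists were chosen with earlier results of these data known. Gene positions and sequences are RefSeq's on GRCm38.p6. Software was scanpy 1.11.5 and igraph 0.11.9 for clustering, scipy 1.17.1 for intervals, and edgeR 4.0.16 under R 4.3.3 for TMM factors alone, otherwise Python 3.11.15. Alternatives were other UMI thresholds, scalings, minimum levels, thinning, clusterings and leaving out spots rich in other tissues. Other marker lists summed, in Blank and Col_nHA, to 1028 and 624.1 CPM (osteoblast), 311 and 199.7 CPM (tendon), 90.9 and 66.7 CPM (cartilage), 945.1 and 1336 CPM (pericyte and smooth muscle), 1782 and 2008 CPM (macrophage), 4614 and 10325 CPM (muscle), 527.2 and 189.6 CPM (fat), 73 and 25.7 CPM (nerve), 13.8 and 5.82 CPM (brain), 11924 and 20.3 CPM (choroid plexus), 92.4 and 143.7 CPM (arachnoid and meninges).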

Additional observations from a re-analysis of the deposited data

How the results depend on the processing

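The alternatives kept 0 members at least 2-fold higher, and 27 of the 31 members kept their side of 1 in 8 settings of threshold, scaling, spot summary and spot choice; Col6a2, Col9a3, Col12a1 and Col26a1 did not. The total ratio was 0.770 with TMM, 0.773 with median of ratios, 0.752 without mitochondrial, ribosomal protein and haemoglobin genes, 0.759 as a mean of per-spot CPM and 0.743 without spots rich in other tissues. The median log2 ratio was -0.25 with every barcode, with TMM, with median of ratios and with a minimum of 5 CPM, -0.24 without mitochondrial, ribosomal protein and haemoglobin genes, -0.19 as a mean of per-spot CPM, -0.19 without spots rich in other tissues and -0.078 with a minimum of 50 CPM. The median over all genes lay between 0.0019 and 0.0686 in these settings. Members at least 2-fold lower numbered 2 of 32 without spots rich in other tissues, beside 264 of 9725 genes. With a minimum of 50 CPM it was 1 of 21 (Col14a1), beside 96 of 3442 genes. As a mean of per-spot CPM it was 3 of 31 (Col6a6, Col14a1, Col17a1), beside 431 of 9923 genes, and Col9a3 stood at 0.551 there. The Col9a3 ratio turned to 1.13 without spots rich in other tissues. The cause was not tested for these values. With fewer or more regions (13 at resolution 0.3, 29 at 1.0) or with the members kept for clustering, collagen ratios in regions with at least 50 spots of each section ran from 0.760 to 1.04, and 2 such regions of each setting lay below 1. No paired analysis was possible because each group held 1 library. Depth limits the 13 members below 10 CPM.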
